A study of Mus musculus with 31 samples.

Results

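Retinas of +/+;CrxpNrl mice at postnatal day 28 (P28) were compared with retinas of the same genotype at P14, which gave 3 arrays against 4, or 7 of the 31 arrays in the series. The arrays were chosen by their labels alone, with no use of expression values. Each sample held both retinas of 1 mouse, and total RNA was hybridised to Affymetrix mouse arrays. CrxpNrl names a transgene that expresses Nrl under the Crx promoter, which is active in developing photoreceptors; these mice carried it on a +/+ background for Rorb. The study also held +/+ retinas without the transgene, Rorb-/- retinas and Rorb-/-;CrxpNrl retinas at both ages, 4 mice in each group. Here +/+ served to set the age difference of the transgenic retina beside that of the wild type, and Rorb-/-;CrxpNrl, which has the transgene and no intact Rorb, served as a second comparison.

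Nrl is the transcription factor that commits photoreceptor precursors to the rod fate, and Rorb is a nuclear receptor that acts upstream of it. When Nrl is expressed in all precursors through the Crx promoter, rods form and cones are nearly absent. In the mouse retina the weeks after P14 follow eye opening: neurons finish their wiring, photoreceptors complete their outer segments and the blood vessel networks mature.

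Values are log2 signals, on which a difference of 1 is 2-fold, and every difference is P28 minus P14. A gene was called at a Benjamini-Hochberg adjusted p under 0.05 in 1 limma fit over all 31 arrays, and counted as changed when it also differed at least 2-fold. The gene lists used below were chosen with earlier results of these data known, so shares of list members are descriptions and not independent tests. On the 7 arrays the lower quartile of all probe sets was 3.99 to 4.04 and the maximum 14.1 to 14.3; differences between signals near either end are compressed. Because whole retinas were measured, fewer cells of a type and less RNA per cell cannot be told apart.

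The array of P14 +/+;CrxpNrl replicate 2 stood apart from the other P14 arrays of its genotype. Its Xist signal of 8.03 lay between the high values of 12.61 and 12.84 and the low value of 4.96 in the other P14 mice, while its Y-linked genes were high, with Eif2s3y at 9.56, Kdm5d at 7.27 and Uty at 7.07. It also had the highest cone opsin signals of the 7 arrays. Both ages held mice with high Xist and mice with high Y-linked genes. Counts of genes changed at least 2-fold are therefore given with and without this array. The same is done for fallen members of the vessel, matrix, immature neuron, microglia and pigment epithelium lists. Several cone gene differences are also given without it.

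**Figure D1:**
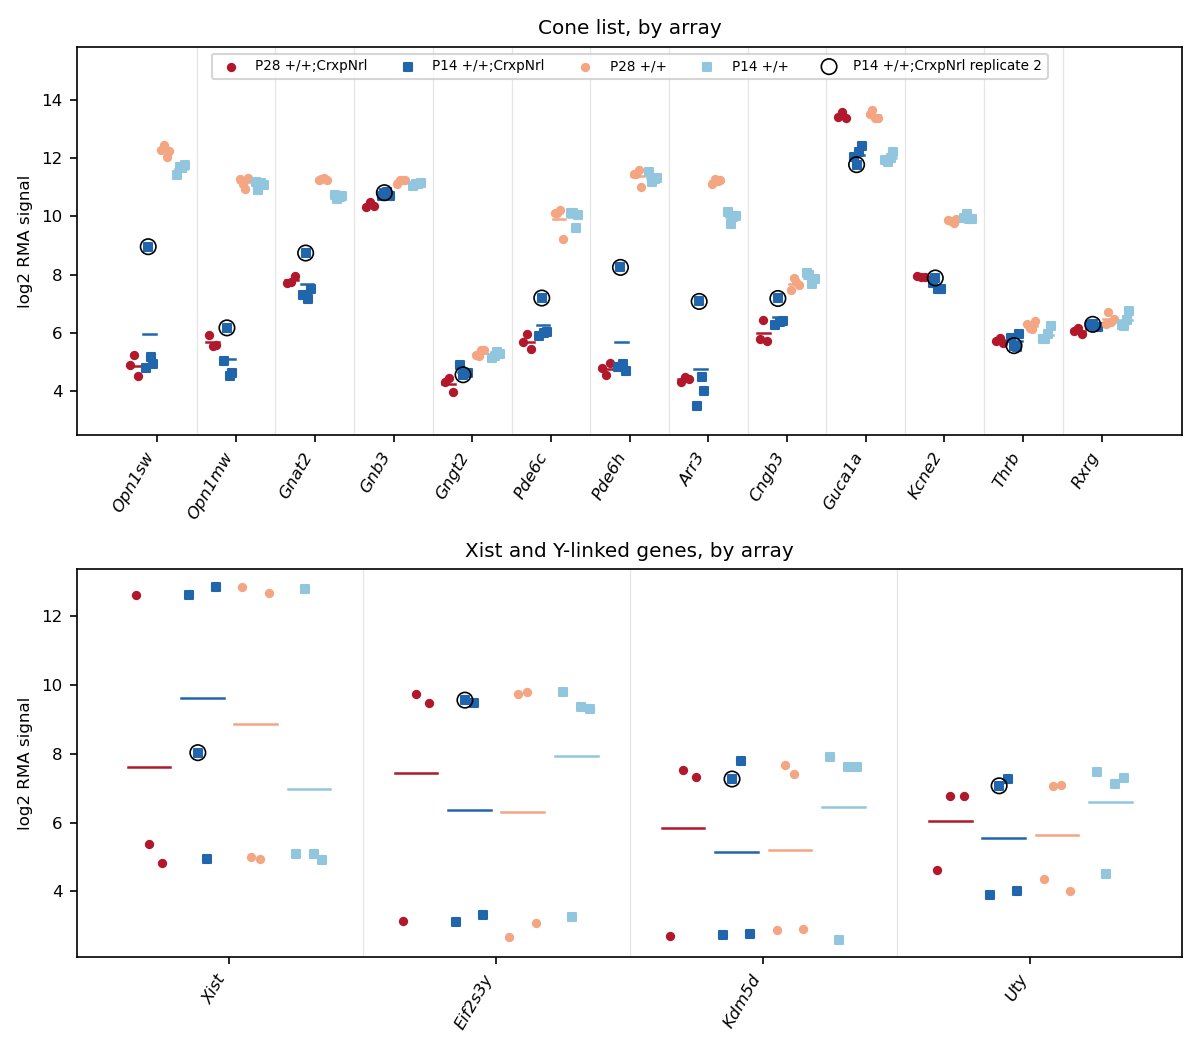
Log2 signals of the 13 measured cone list genes (top) and of Xist and 3 Y-linked genes (bottom) in each array of P28 and P14 +/+;CrxpNrl and P28 and P14 +/+ retinas; horizontal lines are group means and open circles mark P14 +/+;CrxpNrl replicate 2. That array is the highest of the 7 transgenic arrays for Opn1sw at 8.96, and holds high Y-linked genes together with a middle Xist signal of 8.03.

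The description of this retina as nearly without cones was checked on transcripts of the cone list, of which 13 of 14 genes were measured. At P28, 10 of the 13 were lower in +/+;CrxpNrl than in +/+ retinas, against 0.198% of all genes, and at P14 8 were lower, against 0.110%. Opn1sw, the short-wavelength cone opsin, was 7.35 ± 0.60 (SE) lower on the log2 scale than in +/+ at P28 and 5.65 ± 0.56 (SE) lower at P14. The P14 value includes P14 +/+;CrxpNrl replicate 2, which stood high at 8.96. These values therefore do not show a change of the deficit with age. Arr3, cone arrestin, was 6.79 ± 0.47 (SE) lower at P28. Guca1a and the nuclear receptors Thrb and Rxrg were not called at either age, and Guca1a and Gnb3 are also made by other retinal cells.

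Nrl signals, in which the transgene and the mouse's own gene are not told apart, showed no detectable difference between the ages. Nrl read 13.32, 12.99 and 13.37 in the P28 arrays, against 13.33, 13.26, 12.89 and 13.35 in the P14 arrays, a difference of 0.02 ± 0.43 (SE, adjusted p = 0.988). The ages overlapped and the signals lay near the maximum of the arrays. Rorb differed by 0.36 ± 0.21 (adjusted p = 0.321) and Crx, the photoreceptor homeobox factor, by 0.01 ± 0.18 (adjusted p = 0.988).

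The promoters of 2 of the risen genes are shown because their sequence holds a motif of a factor known to act on them. Of the 18193 genes tested, 14452 had a promoter in RefSeq (build GRCm38.p6), of which the 250 bases before the start were read. Sgk1, a kinase named for its response to serum and glucocorticoids, has 6 listed start sites, and 1 of the windows, chr10:21993640-21993889 on the plus strand, holds the palindrome of the glucocorticoid receptor (the letters AGAACA, any 3 bases, then TGTTCT, which reads the same on both strands). Guca1a, at chr17:47400607-47400856 on the minus strand, holds the core motif of Crx (TAATCC, searched on both strands) on the strand opposite to the gene. The motifs are in capitals and the sequences run 5′ to 3′ along the gene.
Sgk1: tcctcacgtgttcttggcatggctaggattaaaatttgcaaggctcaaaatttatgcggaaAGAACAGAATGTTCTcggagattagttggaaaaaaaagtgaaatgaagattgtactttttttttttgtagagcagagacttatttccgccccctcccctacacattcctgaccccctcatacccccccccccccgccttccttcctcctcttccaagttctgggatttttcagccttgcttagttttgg
Guca1a: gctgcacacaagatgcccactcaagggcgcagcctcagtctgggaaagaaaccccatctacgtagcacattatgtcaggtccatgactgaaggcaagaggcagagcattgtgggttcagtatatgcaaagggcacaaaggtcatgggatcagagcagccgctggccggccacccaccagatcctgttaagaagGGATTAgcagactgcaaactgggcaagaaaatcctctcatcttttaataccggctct
The palindrome lies 189 to 175 bases before the Sgk1 start and was found in 2 of the 14452 genes (0.0138%). The Crx core lies 57 to 52 bases before the Guca1a start and was found in 951 genes (6.58%), in 4.52% of the risen genes with a promoter and in 6.48% of the fallen ones. A match describes the letters of the window and does not show binding.

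Across all genes, more fell than rose between P14 and P28. Of 18193 genes, 1792 (9.85%) were called at an adjusted p under 0.05, of which 482 (2.65% of all) rose and 1310 (7.20%) fell, and the median difference of all genes was -0.02. With the 2-fold requirement 121 genes changed (0.665%), 30 higher (0.165%) and 91 lower (0.500%). Without P14 replicate 2 these counts were 110 genes, 32 higher and 78 lower. The arrays of the ages did not overlap for 1593 genes with higher (8.76%) and 2783 with lower (15.3%) P28 signals. The labels call the samples biological replicates.

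The level of pigment epithelium genes moved with age in these arrays. The pigment epithelium lies against the retina and can come away with it in dissection, and the summed linear signal of its 14 list genes was 1720 to 2547 in the P28 arrays, against 3845 to 7001 in the P14 arrays, with no overlap. Its defining genes were above the lower quartile of the arrays at both ages, Rpe65 at 5.60 to 6.29 at P28 and 6.54 to 8.64 at P14. When the pigment epithelium and lens list levels entered the fit as covariates, 76 genes changed at least 2-fold, 19 higher and 57 lower. Of 110 named genes called in the fit without covariates, 38 kept the call and 72 did not; the median difference was 0.902 times its value without covariates in the 38 and 0.856 times in the 72, and the median standard error was 1.39 times in both. Since the pigment epithelium level does not overlap between the ages, the covariate and age cannot be told apart in these 7 arrays. In each paragraph below, the genes that kept their call with these covariates are named.

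Etnppl and Sgk1 had the highest differences of the called genes named. Etnppl, which breaks down phosphoethanolamine and is known from astrocytes, read 7.60, 7.84 and 7.95 in the P28 arrays, against 4.31, 4.49, 5.57 and 4.79 in the P14 arrays. Every P28 array was above every P14 array, and the rise was 3.01 ± 0.40 (SE, adjusted p = 1.01e-05). Its other probe set gave 3.06. Sgk1, whose promoter is printed above, read 11.55, 11.26 and 11.19 at P28, against 8.81, 8.61, 8.79 and 9.0 at P14, a rise of 2.53 ± 0.34 (adjusted p = 1.09e-05). The Sgk1 values of each age lay close together and the ages were far apart.

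Guca1a, Hk2 and Mef2c were the only risen members of the cone, glycolysis and photoreceptor transcription factor lists. Across all genes 2.65% rose and 9.85% were called, so 1 call in a list of this size says little about the list. Guca1a, the calcium sensor that activates guanylate cyclase in outer segments, read 13.42, 13.56 and 13.37 at P28, against 12.02, 11.77, 12.20 and 12.42 at P14 (1.35 ± 0.30, adjusted p = 0.00409). Its P28 signals lay near the top of the arrays. Hk2, the hexokinase that starts glycolysis in photoreceptors, read 11.48, 11.59 and 11.81 at P28, against 9.58, 9.98, 10.37 and 10.18 at P14 (1.60 ± 0.35, adjusted p = 0.00283). It was the only 1 of 16 measured glycolysis genes called, and the list's median was 0.03. Mef2c, a MADS-box transcription factor, read 10.07, 10.43 and 9.92 at P28, against 8.62, 8.72, 7.89 and 8.54 at P14 (1.70 ± 0.36, adjusted p = 0.0022). All 5 of its probe sets were higher at P28, by 1.21 to 1.70. It was the only called gene of 14 measured photoreceptor transcription factors. Cep164, a protein of the centriole appendages needed for cilia, rose by 1.23 ± 0.22 (adjusted p = 0.000536).

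Several rises belonged to other roles. Faim, an inhibitor of death receptor signalling, rose by 1.29 ± 0.17 (adjusted p = 8.58e-06), with values of 11.50, 11.31 and 11.54 at P28, against 10.42, 9.64, 10.33 and 10.25 at P14. Jade2 rose by 1.23 ± 0.13 (adjusted p = 3.18e-07), while its other probe set gave 0.10. Marveld3, a tight junction protein, rose by 1.70 ± 0.29 (adjusted p = 0.000281); its other probe sets gave 0.01 and 0.60. Myo5c, an unconventional myosin, rose by 1.95 ± 0.18 (adjusted p = 2.4e-08) on a probe set whose partner gave 0.21. Zbtb16, a zinc finger transcription repressor, rose by 1.27 ± 0.24 (adjusted p = 0.000748). Sh2d1a, a signalling adaptor of lymphocytes, rose by 1.52 ± 0.22, and Syne3, a nuclear envelope protein, by 1.32 ± 0.21. Bub1b, a spindle checkpoint kinase, rose by 1.42 ± 0.30 while the 24 measured cell cycle genes had a median of 0.01.

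Some rises rested on dim signals or on single arrays. Tecta, a matrix protein best known from the inner ear, read 5.77, 6.05 and 6.03 at P28, against 4.20, 3.61, 3.78 and 3.92 at P14 (2.07 ± 0.41, adjusted p = 0.00111), and its P14 values lay near the lower quartile of the arrays. Edn2, an endothelin made by stressed photoreceptors, read 5.59, 5.46 and 4.77 at P28, against 3.88, 3.92, 4.14 and 3.96 at P14 (1.30 ± 0.35, adjusted p = 0.0161). Its call ended without P28 replicate 1 (adjusted p = 0.096) or P28 replicate 2 (0.071). The call of Fam107a (1.68 ± 0.46) ended without P28 replicate 1, P28 replicate 2 or P14 replicate 2 (adjusted p = 0.056, 0.098 and 0.062). H3c4, a histone gene, rose by 1.28 ± 0.23 from P14 values of 4.00 to 4.30, near the lower quartile. Slc22a29, of the organic anion transporter family, read 4.93, 3.80 and 4.11 at P28, against 2.91, 2.95, 3.40 and 3.12 at P14, all below that quartile, so the size of its difference is not resolved. Traf3ip3 rose by 1.17 ± 0.33, and its call ended without any 1 of the P28 arrays or P14 replicate 2 (adjusted p of 0.052 to 0.071). Among the 20 largest rises, Etnppl, Sgk1, Myo5c, Marveld3, Sh2d1a, Syne3, Faim, Jade2 and Cep164 kept their call with the pigment epithelium and lens covariates.

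**Figure D2:**
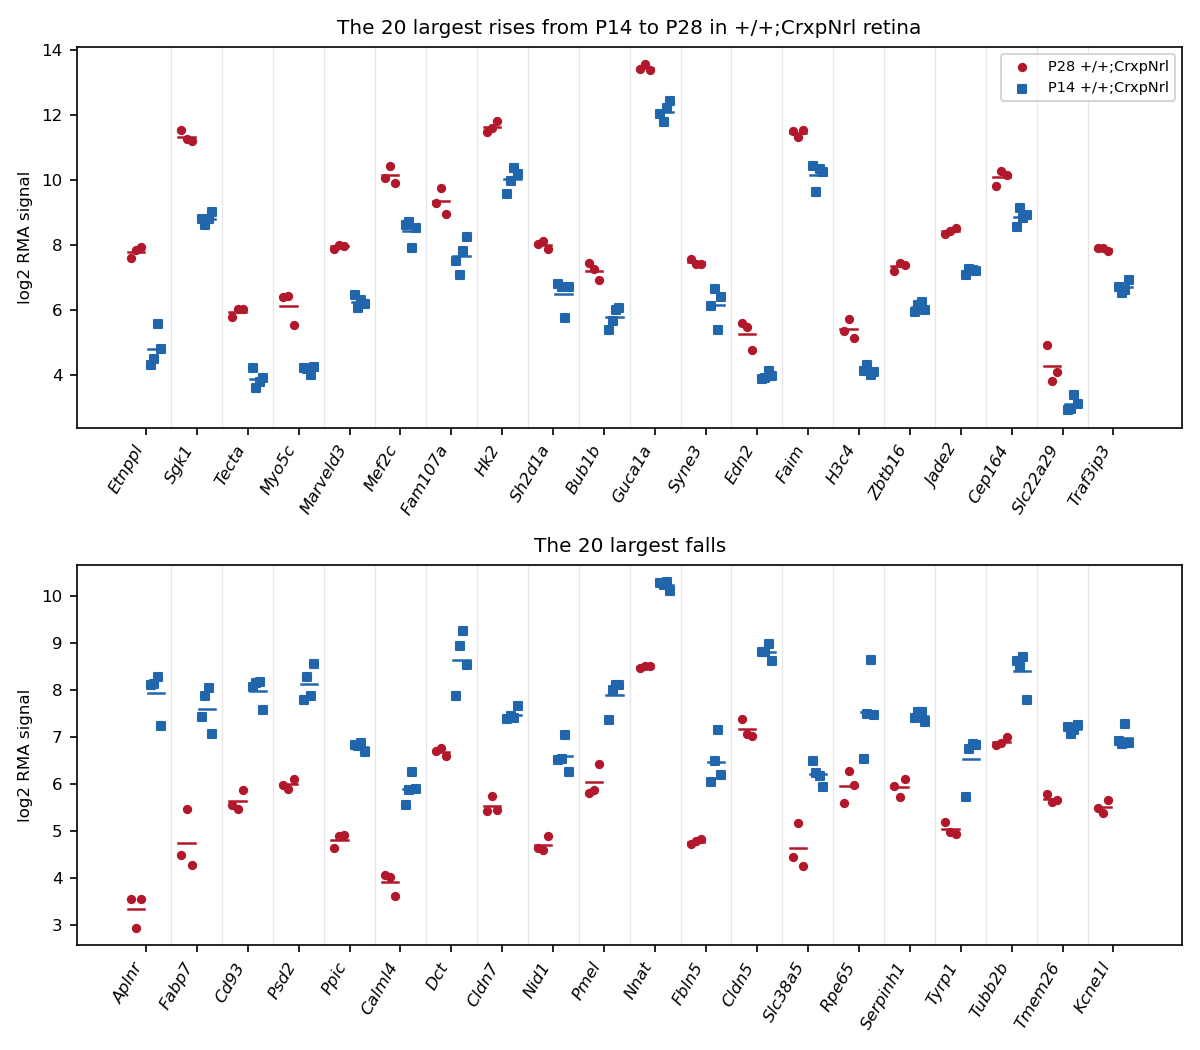
Log2 signals in each array of the 20 largest rises (top) and the 20 largest falls (bottom) among called genes without overlap, with P28 +/+;CrxpNrl arrays as circles left of P14 +/+;CrxpNrl arrays as squares and group means as lines. Aplnr shows the widest gap, with 2.93 to 3.56 at P28 against 7.23 to 8.29 at P14, and Guca1a sits near the top of the signal range.

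Aplnr, Fabp7 and Cd93 had the lowest differences of the called genes named. Aplnr, the apelin receptor of sprouting endothelium, read 3.56, 2.93 and 3.56 in the P28 arrays, against 8.10, 8.13, 8.29 and 7.23 in the P14 arrays. The fitted difference was -4.59 ± 0.27 (SE, adjusted p = 4.55e-12), but every P28 array lay below the lower quartile of probe sets, so the true size is not resolved there. Its other probe set, with no shared sequence, gave -0.83. Cd93, an endothelial surface receptor, read 5.55, 5.48 and 5.88 at P28, against 8.07, 8.15, 8.17 and 7.58 at P14 (-2.36 ± 0.23, adjusted p = 7.18e-08). Its 5 probe sets gave -2.36, -2.32, -0.21, -0.21 and -0.14. Fabp7, the fatty acid binding protein of immature glia, read 4.48, 5.47 and 4.27 at P28, against 7.43, 7.89, 8.05 and 7.07 at P14 (-2.87 ± 0.51, adjusted p = 0.00041). The P28 arrays were below all P14 arrays for each of these genes.

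Psd2 and Ppic followed among the largest falls. Psd2, an exchange factor for Arf proteins, read 5.99, 5.9 and 6.11 at P28, against 7.79, 8.29, 7.88 and 8.56 at P14 (-2.13 ± 0.20, adjusted p = 6.14e-08). Ppic, a cyclophilin, read 4.64, 4.89 and 4.93 at P28, against 6.84, 6.82, 6.87 and 6.67 at P14 (-1.98 ± 0.16, adjusted p = 1.8e-09). Cldn7, an epithelial tight junction protein, fell by 1.93 ± 0.23 (adjusted p = 2.17e-06), and Slc38a5, a glutamine transporter, by 1.58 ± 0.20 (adjusted p = 3.66e-06). Kcne1l fell by 1.48 ± 0.18, and Calml4, a calmodulin-like protein, by 1.98 ± 0.41 to P28 values of 3.62 to 4.07, near the lower quartile. Tmem26 fell by 1.49 ± 0.37, with a call that ended when the mean of its probe sets was used (adjusted p = 0.067). Aplnr, Cd93, Fabp7, Psd2, Ppic, Cldn7, Slc38a5 and Kcne1l kept their call with the covariates.

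Most blood vessel genes fell. Of 18 measured, 12 fell, against 7.20% of all genes, and none rose, with a median of -0.69; without P14 replicate 2 the count was again 12. Cldn5, the tight junction protein of the blood-retina barrier, read 7.40, 7.08 and 7.03 at P28, against 8.82, 8.82, 8.99 and 8.62 at P14 (-1.65 ± 0.19, adjusted p = 1.09e-06). Pecam1, the endothelial adhesion molecule CD31, read 4.72, 4.37 and 4.63 at P28, against 5.76, 5.80, 6.12 and 5.59 at P14 (-1.24 ± 0.16, adjusted p = 6.54e-06). Vwf, von Willebrand factor, fell by 1.08 ± 0.23 and Rgs5, a pericyte gene, by 0.93 ± 0.15. Tie1, an endothelial receptor, fell by 0.83 ± 0.18 to P28 values of 3.61 to 4.16, near the lower quartile. With the covariates 3 members stayed called, among them Cldn5 and Pecam1, and 6 members fell when the dimmest 40% of genes were left out. That filter takes dim list members out of the test. Of all named called genes 83 remained under it, and all 83 kept their call. The summed red blood cell signal was 93.4 to 105 at P28 and 95.2 to 112 at P14. None of its 5 measured genes was called, against 9.85% of all genes.

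Of 20 extracellular matrix genes 11 fell, against 7.20% of all genes, and none rose, with a median of -0.58. Col9a1, a chain of type IX collagen, read 9.81, 9.88 and 9.54 at P28, against 11.13, 11.19, 11.09 and 11.29 at P14 (-1.43 ± 0.11, adjusted p = 5.11e-10), and its other probe set gave -1.44. Bgn, the proteoglycan biglycan, fell by 1.32 ± 0.16 (adjusted p = 3.13e-06). Col4a1, a basement membrane collagen, fell by 1.22 ± 0.37; its call ended under the replicate block (adjusted p = 0.058) and without P28 replicate 1, 2 or 3 or P14 replicate 2 or 3 (0.07 to 0.1). Col4a2, its partner chain, fell by 1.17 ± 0.28, Lama4, a vascular laminin, by 1.15 ± 0.16, and Col1a2, of type I collagen, by 1.13 ± 0.18. Outside this list, Serpinh1, the collagen chaperone, fell by 1.52 ± 0.16, and Fbln5, an elastic fibre protein, by 1.70 ± 0.31. Nid1, a basement membrane linker also outside the list, fell by 1.89 ± 0.51. Its call ended without P28 replicate 1, P28 replicate 2 or P14 replicate 3 (adjusted p = 0.061, 0.059 and 0.055). It also ended with the mean of its probe sets (0.058). Col9a1, Bgn, Lama4 and Col1a2 of the list, and Serpinh1 outside it, kept their call with the covariates. Under the covariates 5 list members fell, and 10 list members fell without P14 replicate 2.

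Of 22 immature neuron genes 14 fell, against 7.20% of all genes, and all 22 had negative differences, with a median of -0.47. Nnat, neuronatin, read 8.48, 8.52 and 8.52 at P28, against 10.28, 10.24, 10.31 and 10.13 at P14 (-1.73 ± 0.12, adjusted p = 2.72e-10). The values lay close together within each age and did not overlap between the ages. Tubb2b, a tubulin of growing neurites, fell by 1.5 ± 0.24, and Marcksl1, an actin regulator, by 1.44 ± 0.15 (adjusted p = 2.94e-07). Sox4, a transcription factor of young neurons, fell by 0.91 ± 0.15, Stmn2, a microtubule regulator of growth cones, by 0.76 ± 0.11, and Gap43, the growth cone protein, by 0.72 ± 0.14. With the covariates 7 members fell, among them Nnat, Tubb2b, Marcksl1, Sox4 and Stmn2. Without P28 replicate 1 the count was 9, and without P14 replicate 2 it was 10. Of 28 measured axon guidance genes 4 fell, against 7.20% of all genes, and none rose. Sema3c, a secreted guidance cue, led them at -1.03 ± 0.26, and its call ended without P28 replicate 1 (adjusted p = 0.081).

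Of 17 microglia genes 6 fell, against 7.20% of all genes, none rose and all 17 differences were negative, with a median of -0.36. Csf1r, the receptor that microglia need to survive, read 7.90, 7.68 and 7.63 at P28, against 8.67, 8.61, 8.56 and 8.49 at P14 (-0.85 ± 0.12, adjusted p = 2.65e-05). C1qc, of complement C1q, fell by 0.79 ± 0.18, its partner chain C1qa by 0.68 ± 0.14 and Ctss, a lysosomal protease, by 0.73 ± 0.15. P2ry12, a purine receptor of resting microglia, fell by 0.73 ± 0.20, with a call that ended without P28 replicate 2, P28 replicate 3 or P14 replicate 1 (adjusted p = 0.069, 0.1 and 0.072). Under the covariates 2 members fell, Csf1r and P2ry12, and without P14 replicate 2 the count was 5.

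Pigment genes made up a further part of the falls. Of 14 measured pigment epithelium and melanocyte genes 4 fell, against 7.20% of all genes, and 1 rose, against 2.65%, with a median of -1.16. Without P14 replicate 2 the count of fallen members was 3. Dct, an enzyme of melanin synthesis, read 6.70, 6.77 and 6.60 at P28, against 7.89, 8.93, 9.27 and 8.54 at P14 (-1.97 ± 0.39, adjusted p = 0.00113). Pmel, the fibril protein of melanosomes, fell by 1.86 ± 0.30, and Tyrp1, a melanin enzyme, by 1.5 ± 0.39. Rpe65, the isomerase of the visual cycle, differed by -1.58 ± 0.48 (adjusted p = 0.0325), and its call ended in 6 of the 7 fits that left out 1 array. None of the 4 stayed called with covariates built from this same list, and 10 members fell in a fit of the 7 arrays alone. Lens genes, from the other neighbouring tissue, had 0 of 17 called, against 9.85% of all genes. Their summed signals ranged widely within each age, from 6540 to 14194 at P28 and from 5901 to 15537 at P14.

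**Figure D3:**
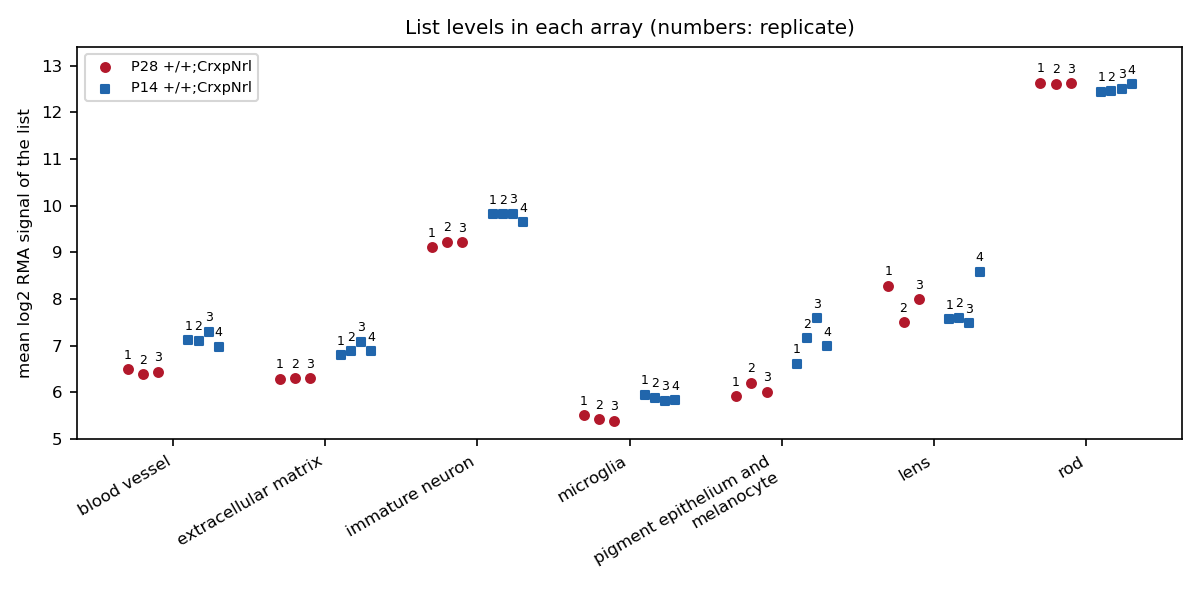
Mean log2 signal of 7 gene lists in each array, with P28 +/+;CrxpNrl arrays as circles left of P14 +/+;CrxpNrl arrays as squares, numbered by replicate. Vessel, matrix, immature neuron, microglia and pigment epithelium levels are lower at P28, without overlap between the ages. Lens levels overlap. Rod levels lie between 12.4 and 12.6, higher at P28 and also without overlap.

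Rod genes showed no called difference. None of 15 measured rod genes passed, against 9.85% of all genes, a share at which a list of this size would hold few calls. The median was 0.09 and the differences were -0.13 to 0.53, of which 3 were negative. Their mean log2 signal was 12.62 to 12.63 at P28 and 12.44 to 12.60 at P14, higher at P28 without overlap. Signals at this height are compressed, and 3 of the 15 were called in a fit of the 7 arrays alone. None of 21 measured outer segment genes was called, again against 9.85% of all genes. Their median was 0.03 and their differences were -0.30 to 4.04.

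Cone genes were the list in which 1 array set the result. Opn1sw read 4.90, 5.24 and 4.51 at P28, against 4.80, 8.96, 5.18 and 4.94 at P14, so that replicate 2 alone stood high. The difference was -1.09 ± 0.60 (adjusted p = 0.303) with that array and -0.09 without it. Opn1mw, the middle-wavelength opsin, read 5.94, 5.55 and 5.60 at P28, against 5.04, 6.18, 4.54 and 4.64 at P14. It differed by 0.60 ± 0.27 (adjusted p = 0.184) with replicate 2, and without it by 0.96 ± 0.22 (adjusted p = 0.00691). Gnat2, the cone transducin, read 7.71, 7.75 and 7.95 at P28, against 7.30, 8.74, 7.17 and 7.49 at P14, and differed by 0.12 (adjusted p = 0.804) with that array and by 0.48 ± 0.12 (adjusted p = 0.0101) without it. Kcne2, a potassium channel subunit, was likewise called only without it (0.35 ± 0.11, adjusted p = 0.0467). Arr3 differed by -0.36 with replicate 2 and by 0.41 without it, and Pde6h, a cone phosphodiesterase subunit, by -0.89 with it and -0.04 without it, neither called.

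The remaining cone genes fell on both sides of 0. With all arrays Guca1a rose and Gnb3, a transducin subunit shared with ON bipolar cells, fell by 0.37 ± 0.08 (adjusted p = 0.00367), while the other 11 of 13 were not called. Pde6c differed by -0.59 ± 0.29, Cngb3 by -0.56 ± 0.24, Gngt2 by -0.42 ± 0.23, Rxrg by -0.18 ± 0.14 and Thrb by 0.02 ± 0.20.

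Called genes in the lists of other neurons and synapses were read against 7.20% of all genes that fell and 2.65% that rose. The shares of the bipolar, amacrine, glutamate receptor, GABA and glycine receptor and potassium channel lists lay near these. In the bipolar list 12 of 14 differences were negative, with a median of -0.16, and 1 gene fell, Isl1, a homeobox factor of ON bipolar, amacrine and ganglion cells, which read 10.68, 10.88 and 10.81 at P28, against 11.47, 11.64, 11.67 and 11.45 at P14 (-0.77 ± 0.12, adjusted p = 0.000105). Of 20 glutamate receptor genes 2 fell and 1 rose, and Grm3, a metabotropic receptor, fell by 1.10 ± 0.18 (adjusted p = 0.000189). Of 17 GABA and glycine receptor genes 1 fell, Glra2, at -0.59 ± 0.14. Of 15 ganglion cell genes 12 had negative differences, none of them called, with a median of -0.21 and a mean log2 signal of 8.25 to 8.34 at P28 and 8.40 to 8.49 at P14. The 1 called member, Pvalb, a calcium buffer, rose by 0.97 ± 0.23. Of 20 ribbon synapse genes 4 fell, among them Erc2, an active zone scaffold, at -0.38 ± 0.09, and Rims1 at -0.48 ± 0.13, whose call ended without P28 replicate 1 (adjusted p = 0.11). In the amacrine list 2 of 19 fell and in the potassium channel list 2 of 24, with medians of -0.11 and 0.02. Of 6 horizontal cell genes 1 rose and 4 had negative differences, with a median of -0.06. The risen gene, Onecut1, lost its call in 12 of 17 alternative fits. Isl1 and Grm3 kept their call with the covariates.

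Glia, metabolism and signalling lists changed by smaller amounts. Their counts stand against 7.20% of all genes that fell and 2.65% that rose. The shares of the cholesterol synthesis, oligodendrocyte and skeletal muscle lists lay near these. Of 14 Müller glia genes 3 fell and 1 rose, and Apoe, the lipid carrier, fell by 0.31 ± 0.07. Of 23 oxidative phosphorylation genes 7 fell and none rose, with a median of -0.16; Ndufs4, of complex I, fell by 0.32 ± 0.07 and Atp5o, of the ATP synthase, by 0.31 ± 0.07, and both calls ended with the mean of all probe sets (adjusted p = 0.77 and 0.094). Of 16 circadian clock genes 3 rose, with a median of 0.24, led by Per2, a clock repressor, at 0.76 ± 0.15. Other probe sets of Per2 gave 0.02 and 0.52. The calls of Hlf and Nr1d2, also risen, ended in 6 and 11 of 18 alternative fits. The labels used here give no hour of dissection. Of 15 immediate early genes 2 rose and 1 fell: Npas4, an activity-dependent factor, rose by 0.79 ± 0.18, and Jun fell by 0.43 ± 0.09. Of 13 apoptosis genes 2 rose and 1 fell, with Bcl2, a survival factor, up by 0.54 ± 0.10. The calls of Fas and Casp8 ended in 8 and 7 of 17 alternative fits. In the oligodendrocyte list Cnp, a myelin enzyme, fell by 0.77 ± 0.11 as the only 1 of 10. Of 19 cholesterol synthesis genes 2 fell, led by Dhcr7, the last enzyme of the pathway, at -0.53 ± 0.10. Of 17 stress and gliosis genes 3 rose and 1 fell, and of 13 retinoid cycle genes 1 rose and 2 fell. In the stress list the calls of Mt1, Mt2 and A2m ended in 9, 8 and 8 of 18 alternative fits. Of 9 skeletal muscle genes 1 fell, Acta1, at -0.70 ± 0.14, and none of 12 interferon-stimulated genes was called. Jun and Cnp kept their call with the covariates.

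**Figure D4:**
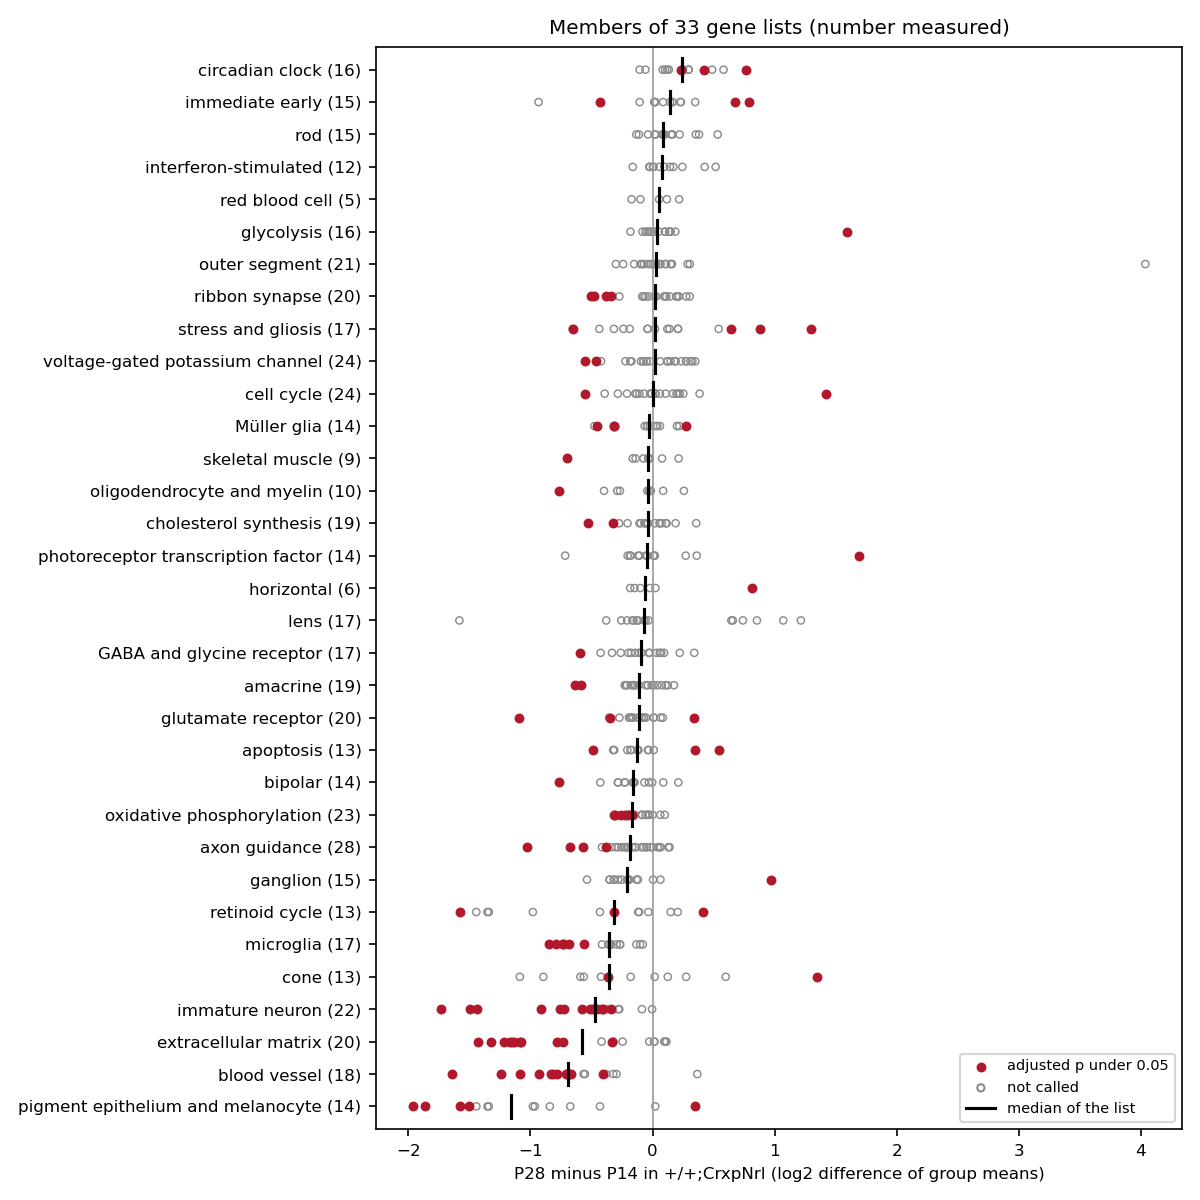
Difference P28 minus P14 in +/+;CrxpNrl retina (log2) of each measured member of 33 gene lists, ordered by the list's median, with called members filled and medians as black bars. The pigment epithelium, vessel, matrix and immature neuron lists lie lowest, and the circadian clock list highest at 0.24; the open circle at 4.04 is Prph2.

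The age difference of the transgenic retina was set beside that of +/+ retinas, which share no arrays with it. In +/+ 51 genes were at least 2-fold higher (0.280%) and 103 lower (0.566%) at P28. Of the 30 genes higher in +/+;CrxpNrl, 23 were among these (76.7% of the 30 and 45.1% of the 51), and of the 91 lower genes 62 were (68.1% of the 91 and 60.2% of the 103). The sign in +/+ was the same for 29 of the 30 and for all 91. At any fold, 1050 genes (5.77%) rose and 1445 (7.94%) fell in +/+. In +/+;CrxpNrl 12 vessel, 11 matrix, 14 immature neuron, 6 microglia and 4 pigment epithelium genes fell, and in +/+ 10, 10, 16, 8 and 10 genes of these lists fell. Etnppl differed by 3.01 in +/+;CrxpNrl and 2.95 in +/+. Sgk1 differed by 2.53 in +/+;CrxpNrl and 2.41 in +/+, and Cd93 by -2.36 in +/+;CrxpNrl and -2.45 in +/+. Across genes the age differences correlated at 0.717, as a description over 18193 genes that are not independent replicates.

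No gene passed the test of the difference between the age effects of +/+;CrxpNrl and +/+ in the limma fit, with 938 genes (5.16%) at an unadjusted p under 0.05. The difference of the age effects was 0.09 ± 0.31 (SE) for Cd93, 0.05 ± 0.54 for Etnppl and 0.12 ± 0.46 for Sgk1. Each of these differences was smaller than its standard error. Tecta had 2.07 in +/+;CrxpNrl and -0.18 in +/+, a difference of 2.25 ± 0.55 (adjusted p = 0.286). The lowest adjusted p belonged to Kifc3, a kinesin chosen here after its values were seen, at -0.87 in +/+;CrxpNrl and 0.01 in +/+, a difference of -0.88 ± 0.16 (adjusted p = 0.123). Gnb3 differed between the age effects by -0.48 ± 0.11 (adjusted p = 0.286) and Jun by -0.42 ± 0.13 (adjusted p = 0.605). In 6 of the alternative fits 1 or 2 genes were called, from among Kifc3, Ccn6, Eri3, Col19a1, Tecta and Dynll2.

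**Figure D5:**
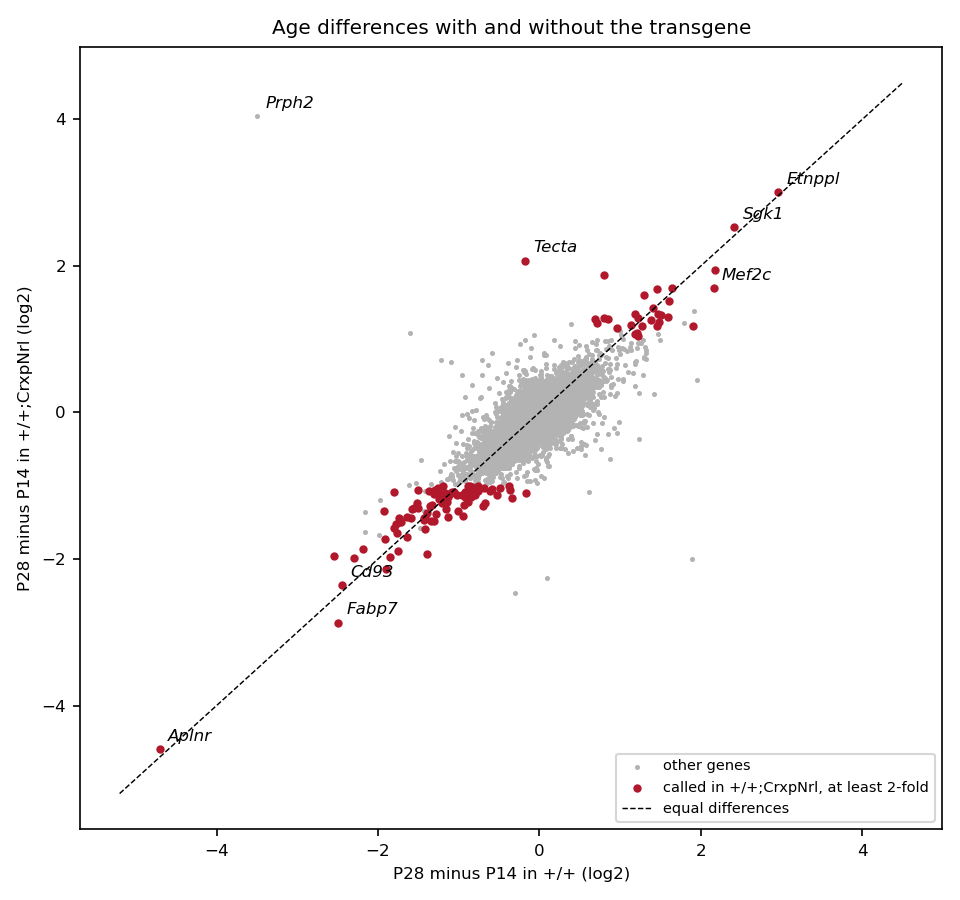
Difference P28 minus P14 (log2) of each of 18193 genes in +/+;CrxpNrl retinas (vertical axis) against +/+ retinas (horizontal axis), with the 121 genes changed in +/+;CrxpNrl in red and a dashed line of equal differences. Most red points lie along the line, and Tecta, at 2.07 and -0.18, lies away from it.

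Set beside Rorb-/-;CrxpNrl retinas, the age effect differed for 2280 genes (12.5%), 719 more positive (3.95%) and 1561 more negative (8.58%) in +/+;CrxpNrl. None of 12 interferon-stimulated genes rose in +/+;CrxpNrl and 11 rose in Rorb-/-;CrxpNrl, where 13.6% of all genes rose; Ifit1, an antiviral effector, had an age effect 3.97 lower in +/+;CrxpNrl. The pigment epithelium list moved in opposite directions, with medians of -1.16 in +/+;CrxpNrl and 1.14 in Rorb-/-;CrxpNrl. With the pigment epithelium and lens covariates 44 genes differed in place of 2280, and with array weights 3626. Without P14 +/+;CrxpNrl replicate 2 the count was 1995.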

How the data were processed

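The deposited values of 45101 probe sets are log2 signals. The authors obtained them with RMA, as the submitters' processing notes state without a version; background correction, normalization and summary were thus done before deposit. Of these, 34945 probe sets with 1 gene symbol were used, and each of 18193 genes was represented by its brightest probe set on average across the series. Probe sets with several symbols (932) or none (9211) were left out. No counts underlie array signals, so the number of arrays limits the precision.

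One fit in limma 3.58.1 (R 4.3.3) gave each of the 8 groups a mean with a trended prior variance, and p-values were adjusted by Benjamini-Hochberg over all genes. On simulated arrays of the P28 against P14 +/+;CrxpNrl comparison with 18193 genes, 100% of changes of 1.5 and 99% of changes of 2.5 on the log2 scale were recovered. The simulated noise was independent between arrays and no smaller changes were simulated. These shares therefore do not describe the recovery of the smaller differences named above. Genes named are the 20 largest rises and 20 largest falls past adjusted p 0.05 whose arrays do not overlap, up to 6 called members per list, all cone genes, Nrl, Rorb and Crx, and the 5 largest each way of the difference from Rorb-/-;CrxpNrl; sex-linked genes, clone names and predicted genes were left out, and fewer could be named. The gene lists and their members were chosen with earlier results of these data known. Of 598 list entries 544 were measured.

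Replicate numbers recur across groups. In this comparison, arrays with the same number deviated from their group means together (correlations of 0.302, 0.240 and 0.228). P28 replicate 1 and P14 replicate 4, which have different numbers, correlated at 0.243, so the number does not single out such pairs. A fit with the replicate number as a block was set beside the main one. Figures were drawn with matplotlib 3.10.9.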

Additional observations from a re-analysis of the deposited data

Results flagged for a closer look

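Among 124 genes checked, 10 had 1 P14 +/+;CrxpNrl array far from the other 3 by Dixon's criterion, which chance meets in about 1 of 20 groups. In 4 cone genes that array was replicate 2, which read high: Opn1sw at 8.96, Pde6h at 8.25, Pde6c at 7.20 and Cngb3 at 7.18. The same array had the middle Xist signal given in the report. Pigment genes were low in replicate 1, Pmel at 7.36 and Tyrp1 at 5.72. Replicate 3 was low in Sh2d1a at 5.75 and high in Kcne1l at 7.29 and Dhcr7 at 9.41, and replicate 4 was low in Cd93 at 7.58.

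The age effect differed between +/+;CrxpNrl and Rorb-/-;CrxpNrl retinas by a fitted interaction for 10 named genes. It was more positive in +/+;CrxpNrl by 2.89 for Myocd, a muscle transcription factor, by 2.38 for Pex5l, a channel partner, by 2.26 for Lyz1, lysozyme (-0.14 without probe sets of shared sequence), by 2.25 for Tecta and by 2.17 for Samd7, a photoreceptor repressor. In +/+;CrxpNrl itself Tecta rose, while the differences of Myocd (-0.07), Pex5l (0.58), Lyz1 (-0.42) and Samd7 (0.09) were not called. It was more negative by -3.41 for Usp18, -3.50 for Rtp4 and -3.97 for Ifit1, which are interferon-stimulated, by -3.45 for Dct and by -3.56 for Pdxdc1. Pdxdc1's difference was 0.049 with the mean of its probe sets, and in +/+;CrxpNrl the probe set used gave -2.46 while its other 3 gave 0.43, 0.58 and 1.52. The interferon genes differed by 0.01, -0.16 and 0.17 in +/+;CrxpNrl, none called.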

How the results depend on the processing

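With the replicate number as a block 125 genes changed at least 2-fold, 113 of them shared with the 121, and 1446 were called at any fold against 1792; the block ended 13 of 110 named calls and moved none of the counts given by over 1.5 times. Of the 110, 34 kept their call in every alternative in which they were tested and 76 lost it in at least 1. Only 98 of the 110 were tested without probe sets of shared sequence, and 83 without the dimmest 40% of genes. The number of changed genes was 76 with the pigment epithelium and lens covariates, 518 at 1.5-fold and 1792 with no fold requirement; for higher genes these were 19, 122 and 482, and for lower genes 57, 396 and 1310. Lower genes numbered 57 with the mean of all probe sets and 60 without the dimmest 40% of genes, a filter that takes genes out of the count. All 83 named calls still tested under that filter were kept. Under the covariates the fallen members were 3 in the vessel, 5 in the matrix, 7 in the immature neuron, 2 in the microglia and 0 in the pigment epithelium list. The vessel list had 6 without the dimmest 40%; a fit of the 7 arrays alone called 10 pigment epithelium and 3 rod genes. Without the single arrays in turn, changed genes ranged over 107 to 127 (higher 28 to 35, lower 76 to 99), fallen vessel genes 11 to 12, matrix 8 to 10, immature neuron 9 to 13, microglia 4 to 6, pigment epithelium 3 to 6 and rod 0 to 0; cone genes lower than in +/+ were 8 at P14 and 9 at P28. The difference from +/+ had 0 to 2 called genes, and 1 with the sex-linked covariate (Kifc3). That from Rorb-/-;CrxpNrl had 1702 to 3302 without single arrays, 3626 with array weights and 44 with the covariates. The sign turned for 9 named genes. Crx was -0.13 with the mean of probe sets, -0.093 with the covariates and -0.017 to 0.050 without single arrays. Nrl was -0.024 with quantile normalization, -0.020 with array weights, -0.011 with the sex-linked covariate, -0.40 with the tissue covariates and -0.088 to 0.14 without single arrays. Thrb was -0.056 with the covariates and -0.053 to 0.10 without single arrays, as Gnat2 was -0.045 to 0.48 and Arr3 -0.78 to 0.41. Rpe65 was 0.16 with the covariates, and the difference of Pdxdc1 from Rorb-/-;CrxpNrl 0.049 with the mean of probe sets. Without probe sets of shared sequence, Acta2 was 0.075 and the difference of Lyz1 from Rorb-/-;CrxpNrl -0.14. Each cause was not tested, except that covariates built from the pigment list take up its own signal.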

Other observations

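Prph2, a structural protein of the outer segment rim measured by 1 probe set, varied widely between arrays of 1 group. It read 10.05, 9.10 and 12.78 at P28 in +/+;CrxpNrl, against 6.46, 6.66, 6.75 and 6.55 at P14. In +/+ retinas it read 6.66, 8.05, 8.86 and 7.59 at P28, against 7.32, 12.50, 12.61 and 12.71 at P14, the opposite order. The age difference in +/+;CrxpNrl was 4.04 ± 1.39 (SE, adjusted p = 0.0644) and was not called. Prph2 lies outside the rule for naming genes and was chosen after its values were seen.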
